A study of Mus musculus with 54 samples.

Results

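The 10 genes described here are H19, Igf2, Igf2r, Peg3, Peg10, Mest, Meg3, Cdkn1c, Plagl1 and Grb10, all of which are imprinted in the mouse. They were chosen by name, and all 10 had an entry in a table of 23481 genes. RNA-seq was made from 4T1 cells, a mouse mammary carcinoma line that spreads to the lung, in 2 lung metastases, 2 orthotopic tumors and 23 cell lines that had each been grown from 1 sorted 4T1 cell. Clones E and T carry the label of intravasating clones, meaning that in a pooled test their cells entered the bloodstream, and the other 21 clones are labelled non-intravasating. Libraries were lettered A and B, 2 per specimen and 2 per clone. No genetic change and no drug treatment is given for any group, the labels name the same culture medium for all of them, and neither the strain nor the age of the host mice is stated. The labels leave out whether tumor cells were separated from host tissue and which 4T1 cells had been injected. Nor do they say if libraries A and B of a clone were separate cultures. P-values over libraries therefore reflect the spread of repeat libraries alone, which may be technical.

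An imprinted gene is normally expressed from the allele of 1 parent, which is set by DNA methylation laid down in the germ line and kept through cell division by a zinc-finger protein, ZFP57, and the maintenance methyltransferase. Many imprinted genes lie in clusters and act on growth. IGF2 is a growth factor of the embryo, IGF2R takes it up for degradation, and GRB10 and CDKN1C restrain growth at the insulin and IGF receptors and at the cell cycle. In adult mouse tissues many of these genes are low, and several form a network that is shut down after birth. RNA levels do not show which allele was read, so the state given here is that of the gene and not that of the imprint.

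Levels are normalized counts, recovered from the deposited log2 values, and they are given as the mean of the 2 libraries where 1 value is printed for a clone or specimen. A gene was called on where both libraries had at least 10 normalized counts, off where both had fewer, and mixed otherwise. Reads per library ran from 16327693 to 20368740 in lung metastases, from 12183058 to 17369960 in tumors, from 15581390 to 31609870 in the intravasating clones and from 8849257 to 27304778 in the other clones. In a clone library with 0 reads of a gene, a limit of 3 reads stands for 1.53 to 5.85 normalized counts, below the minimum for a gene that was on, and this covers counting error only. The A libraries of the lung metastases had a read for 20278 and 19868 genes, against 16604 and 16972 in their B libraries, so they stood apart for low genes. The 6 epithelial markers, Epcam, Cdh1, Krt8, Krt18, Krt14 and Cldn7, each reached 10 counts in a library of every kind of sample and summed to 13587 to 23704 counts in lung metastases, 17192 to 29995 in tumors and 12208 to 79026 in clones.

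Promoter sequence is shown for 4 of the genes, chosen because they stood in different states: Mest was on in every clone, Plagl1 was on in some, and Peg3 and Meg3 were off in all. Each line gives the 250 bases before a RefSeq transcript start of the gene, on build GRCm38.p6, written 5′ to 3′ on the strand of the gene. For Mest and Plagl1 this start lies far inside the gene bounds given below. Capitals mark the hexamer TGCCGC, the core that ZFP57 is known to bind when methylated, or its reverse complement GCGGCA.
Mest, plus strand, chr6:30737800-30738049: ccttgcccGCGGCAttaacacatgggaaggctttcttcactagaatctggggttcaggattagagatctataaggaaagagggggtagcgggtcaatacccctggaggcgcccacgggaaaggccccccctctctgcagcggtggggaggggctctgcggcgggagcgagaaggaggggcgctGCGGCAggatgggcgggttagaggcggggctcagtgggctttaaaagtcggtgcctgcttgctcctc
Plagl1, plus strand, chr10:13090582-13090831: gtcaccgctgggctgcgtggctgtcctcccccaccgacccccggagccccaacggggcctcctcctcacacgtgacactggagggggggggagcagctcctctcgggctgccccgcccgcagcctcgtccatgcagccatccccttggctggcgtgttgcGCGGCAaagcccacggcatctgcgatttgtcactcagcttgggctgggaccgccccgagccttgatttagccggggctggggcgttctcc
Peg3, minus strand, chr7:6730420-6730669: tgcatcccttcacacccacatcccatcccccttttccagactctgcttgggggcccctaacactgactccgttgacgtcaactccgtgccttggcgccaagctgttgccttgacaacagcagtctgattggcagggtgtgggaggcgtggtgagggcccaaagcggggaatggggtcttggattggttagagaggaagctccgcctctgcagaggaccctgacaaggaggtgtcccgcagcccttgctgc
Meg3, plus strand, chr12:109540746-109540995: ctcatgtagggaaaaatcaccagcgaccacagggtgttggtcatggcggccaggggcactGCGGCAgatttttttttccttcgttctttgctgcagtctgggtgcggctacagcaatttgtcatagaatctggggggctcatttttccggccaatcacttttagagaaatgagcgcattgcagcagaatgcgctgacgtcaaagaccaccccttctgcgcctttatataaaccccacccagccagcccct

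Counted on both strands of windows of 300 bases, which add the first 50 bases after the start, the hexamer occurred 2 times in the Mest window, 1 time each in the Plagl1 and Meg3 windows and 0 times in the Peg3 window. Of all 32851 windows, 11.6% held it and 1.53% held 2 or more copies. RefSeq windows were matched for 7 of the 10 genes, 14 windows in all, of which 6 windows of 5 genes held the hexamer. The number of CG pairs was 17 in the Mest window, 26 in that of Plagl1, 13 in that of Peg3 and 13 in that of Meg3, against a median of 7 over all windows. These are the windows shown. Mest has another window 3 bases further on with the same 2 copies and 1 upstream with 0 copies and 8 CG pairs, and Meg3 has another with 0 copies and 1 CG pair. No match says only that these letters are not in this window.

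Some of the genes also carry microRNAs. Mir483 overlaps Igf2 on its strand, and Mir770 and Mir1906-1 overlap Meg3 on its strand. Sequences are shown only for the microRNAs of H19 and Mest. The precursor of miR-675 lies in an exon of H19 on its strand, and that of miR-335 lies within Mest on its strand, outside the annotated exons. The mature sequences follow, with the seed, bases 2 to 8, in capitals. No seed was shared among those shown.
miR-675-5p, minus strand, chr7:142577112-142577133: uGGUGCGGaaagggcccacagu
miR-675-3p, minus strand, chr7:142577078-142577099: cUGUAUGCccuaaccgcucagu
miR-335-5p, plus strand, chr6:30741314-30741336: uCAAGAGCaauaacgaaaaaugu
miR-335-3p, plus strand, chr6:30741354-30741375: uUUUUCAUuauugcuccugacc
The libraries were made from fragmented cDNA and did not measure mature microRNAs. The precursors themselves had 0 reads (Mir675) and 6 reads (Mir335) over the 46 clone libraries.

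The 10 genes fell into 3 kinds by their state in the clones. Igf2r and Mest were on in 23 of 23 clones. H19 was on in 13 and off in 10, and Plagl1 was on in 8, off in 14 and mixed in 1. Igf2, Peg3, Peg10, Meg3, Cdkn1c and Grb10 were off in 23 of 23. In the specimens, Igf2r, Mest, H19 and Plagl1 were on in all 4, and Meg3 and Grb10 were on in Lung_2 and in no other specimen. Meg3 was mixed in Lung_1, Peg3 in Lung_2 and Cdkn1c in Tumor_2.

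**Figure D1:**
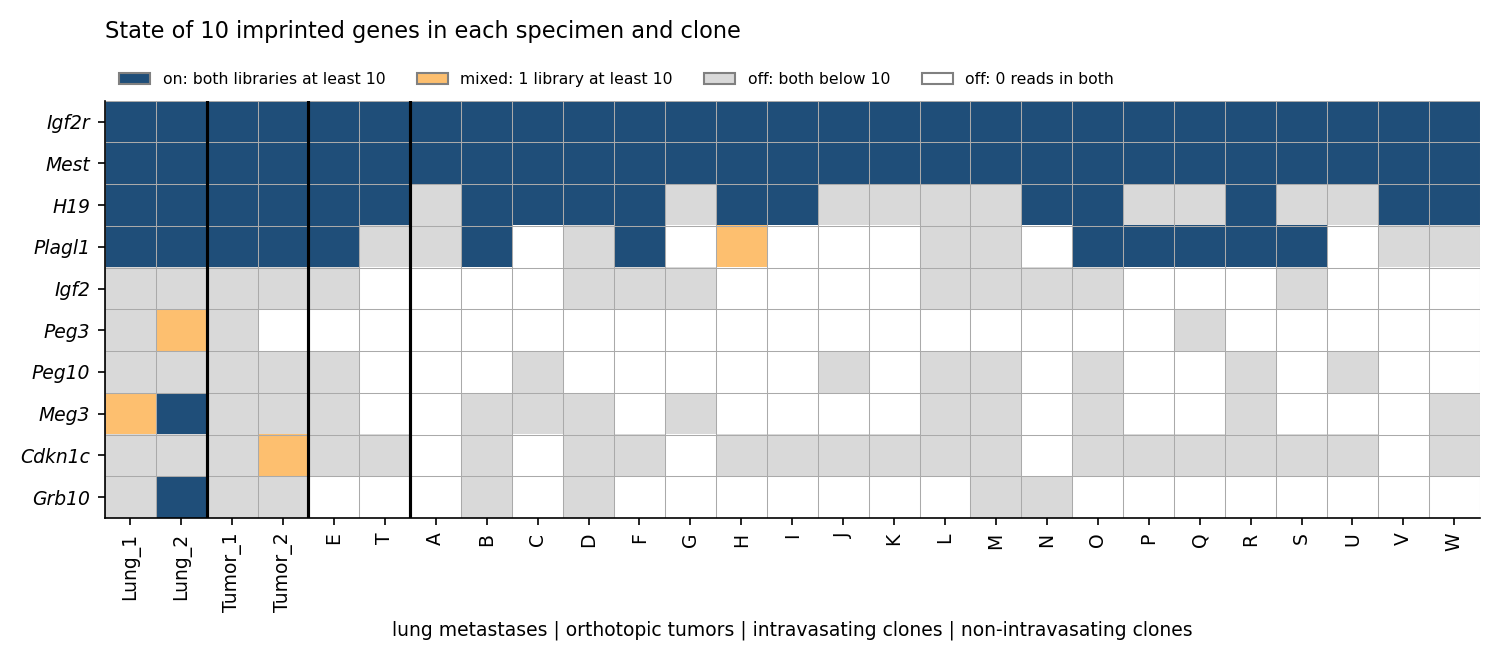
State of the 10 imprinted genes (down the page) in the 2 lung metastases, 2 orthotopic tumors, clones E and T and 21 other clones (across). Dark blue stands for on, orange for mixed, grey for off with a read in a library and white for off with 0 reads in both libraries; the upper 2 genes are dark blue throughout, and H19 and Plagl1 change between clones.

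H19 is a maternally expressed long noncoding RNA that lies beside Igf2 and shares its enhancers (chr7:142575529-142578143, minus strand, GRCm38, the build also called mm10). It had 203 and 174 normalized counts in the A and B libraries of Lung_1, 390 and 455 in Lung_2, 237 and 238 in Tumor_1 and 315 and 256 in Tumor_2. Clone E had 56.0 and 97.7 counts and clone T had 32.0 and 33.8. Over the 21 other clones the mean of the 2 libraries ran from 0.557 in clone A over a median of 13.7 to 153 in clone F. All 8 specimen libraries lay above all 46 clone libraries, of which the highest was library A of clone D with 172 counts.

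H19 was on in clones E, T, B, C, D, F, H, I, N, O, R, V and W. It was off in A, G, J, K, L, M, P, Q, S and U, and each of these clones had an H19 read in at least 1 library. The clones nearest to the minimum were M and Q below it, with 6.66 and 7.87 counts, and H and O above it, with 13.7 and 14.3. In order of level, from Lung_2 through Tumor_2, Tumor_1, Lung_1 and clones F, D, R and E down to clone A, 18 of 26 neighbours overlapped in their libraries. Gaps without overlap included those between Lung_1 and F and between V and W. Clones H and Q, where the state changes from on to off, could not overlap, because the states are defined by both libraries.

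Plagl1 encodes a zinc-finger transcription factor, also called ZAC1, which is expressed from the paternal allele and can halt the cell cycle (chr10:13060504-13131694, plus strand). Its libraries had 39.5 and 37.1 counts in Lung_1, 68.7 and 39.6 in Lung_2, 21.8 and 19.8 in Tumor_1 and 29.1 and 22.2 in Tumor_2. Clone E had 21.9 and 30.4 counts and clone T had 4.57 and 2.11, so the pair of intravasating clones stood on opposite sides of the minimum. The 21 other clones ran from 0 over a median of 3.11 to 46.6 in clone Q.

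Plagl1 was on in E, B, F, O, P, Q, R and S, and mixed in H, which had 10.8 and 6.35 counts. In C, G, I, J, K, N and U both libraries had 0 reads, and A, D, L, M, T, V and W had between 1.18 and 7.17 counts. In order of level, 20 of 26 neighbours overlapped in their libraries, and the break between clones B and H, where the state changes, was among the 6 that did not. Unlike H19, Plagl1 was not highest in the specimens alone, since clones Q and P lay between Lung_2 and Lung_1.

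**Figure D2:**
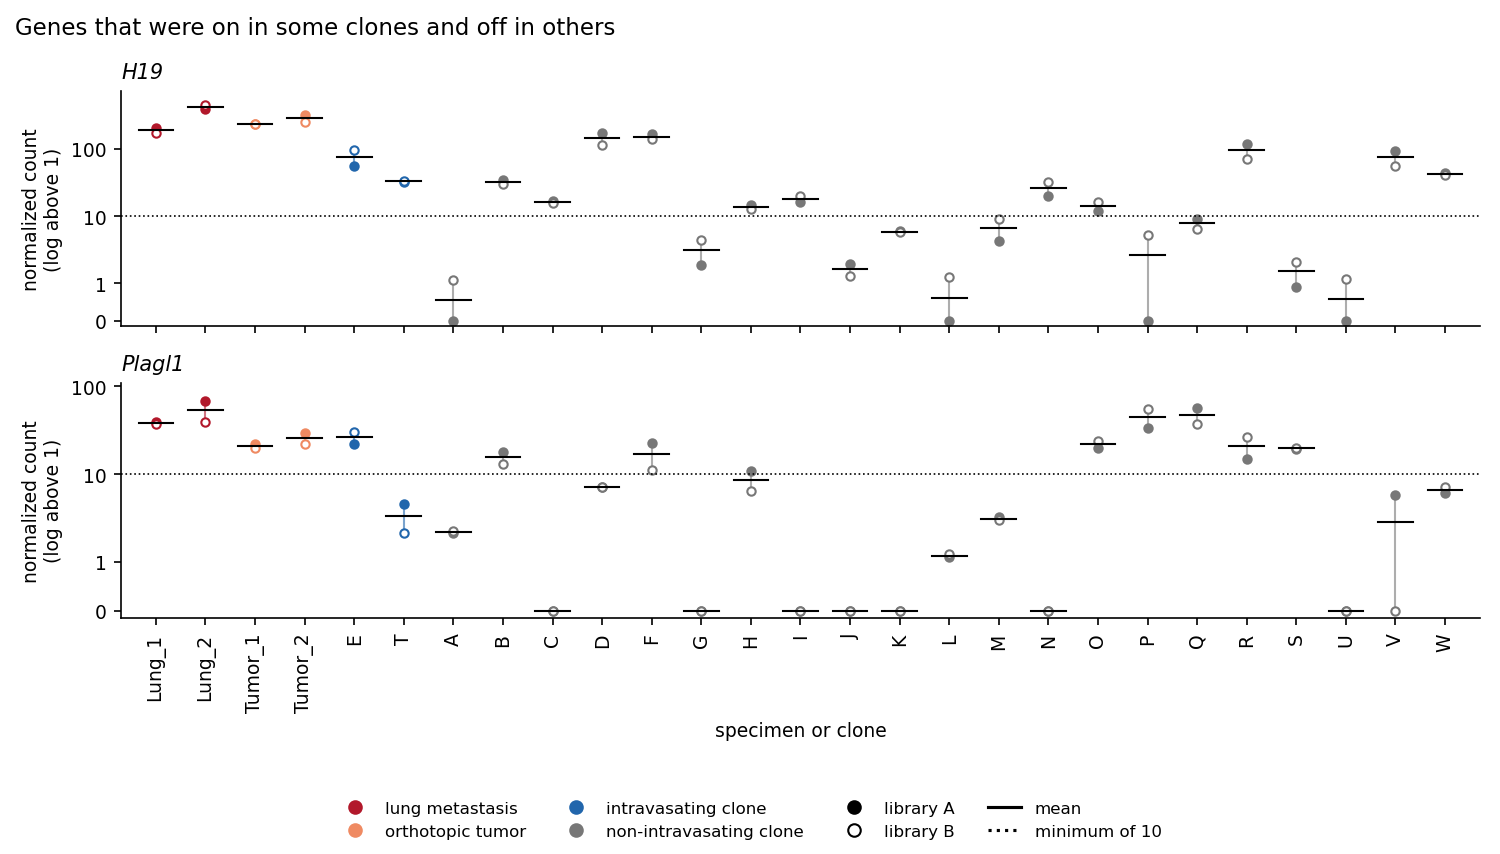
Normalized counts of H19 (upper panel) and Plagl1 (lower panel) in each specimen and clone, on an axis that is linear below 1 and logarithmic above. Filled and open points are libraries A and B, bars are their mean and the dotted line is the minimum of 10; H19 is higher in all 8 specimen libraries than in any clone library, and Plagl1 has 0 reads in both libraries of 7 clones.

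The states of H19 and Plagl1 occurred in every combination. Both were on in E, B, F, O and R, and both were off in A, G, J, K, L, M and U. H19 was on and Plagl1 off in T, C, D, I, N, V and W, and Plagl1 was on and H19 off in P, Q and S, while in H H19 was on and Plagl1 mixed. With Igf2r and Mest, 5 clones thus had 4 of the 10 genes on, 11 had 3 and 7 had 2. The 2 intravasating clones had different combinations, on and on in E and on and off in T, and each combination was shared with clones that are not labelled intravasating.

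Igf2r encodes the receptor for mannose 6-phosphate and IGF2, which carries enzymes to lysosomes and clears IGF2, and in the mouse it is expressed from the maternal allele (chr17:12682406-12769664, minus strand). It was the most abundant of the 10 genes per length, with a median of 604 normalized counts per kilobase of exon over the clones, against 37.0 for Mest, 5.80 for H19, 0.518 for Cdkn1c, 0.428 for Plagl1 and 0 for the other 5. Its libraries had 5363 and 6680 counts in Lung_1, 5921 and 5939 in Lung_2, 5244 and 5001 in Tumor_1 and 4810 and 4235 in Tumor_2. Clone E had 6581 and 5473 counts and clone T 3865 and 4700, and the other clones ran from 2562 in I over a median of 5624 to 8480 in J, a span of 3.31 times. The specimens and the intravasating clones lay inside that range. Clones I, N, U and G were lowest. Of 26 pairs of neighbours in order of level, the libraries of 3 did not overlap, namely J and M, T and G, and G and U.

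Mest encodes a hydrolase-like protein of the endoplasmic reticulum, expressed from the paternal allele and tied to growth in the embryo and to the size of fat cells (chr6:30723547-30748465, plus strand). It had 216 and 339 counts in Lung_1, 186 and 158 in Lung_2, 153 and 179 in Tumor_1 and 228 and 139 in Tumor_2. Clone E had 230 and 311 counts and clone T 147 and 145, and the other clones ran from 37.6 in Q over a median of 145 to 532 in J, a span of 14.2 times. Clones Q, G and I were lowest, with 37.6, 51.6 and 57.4 counts, and J, S and V had higher means than any specimen. In order of level, 21 of 26 neighbours overlapped.

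**Figure D3:**
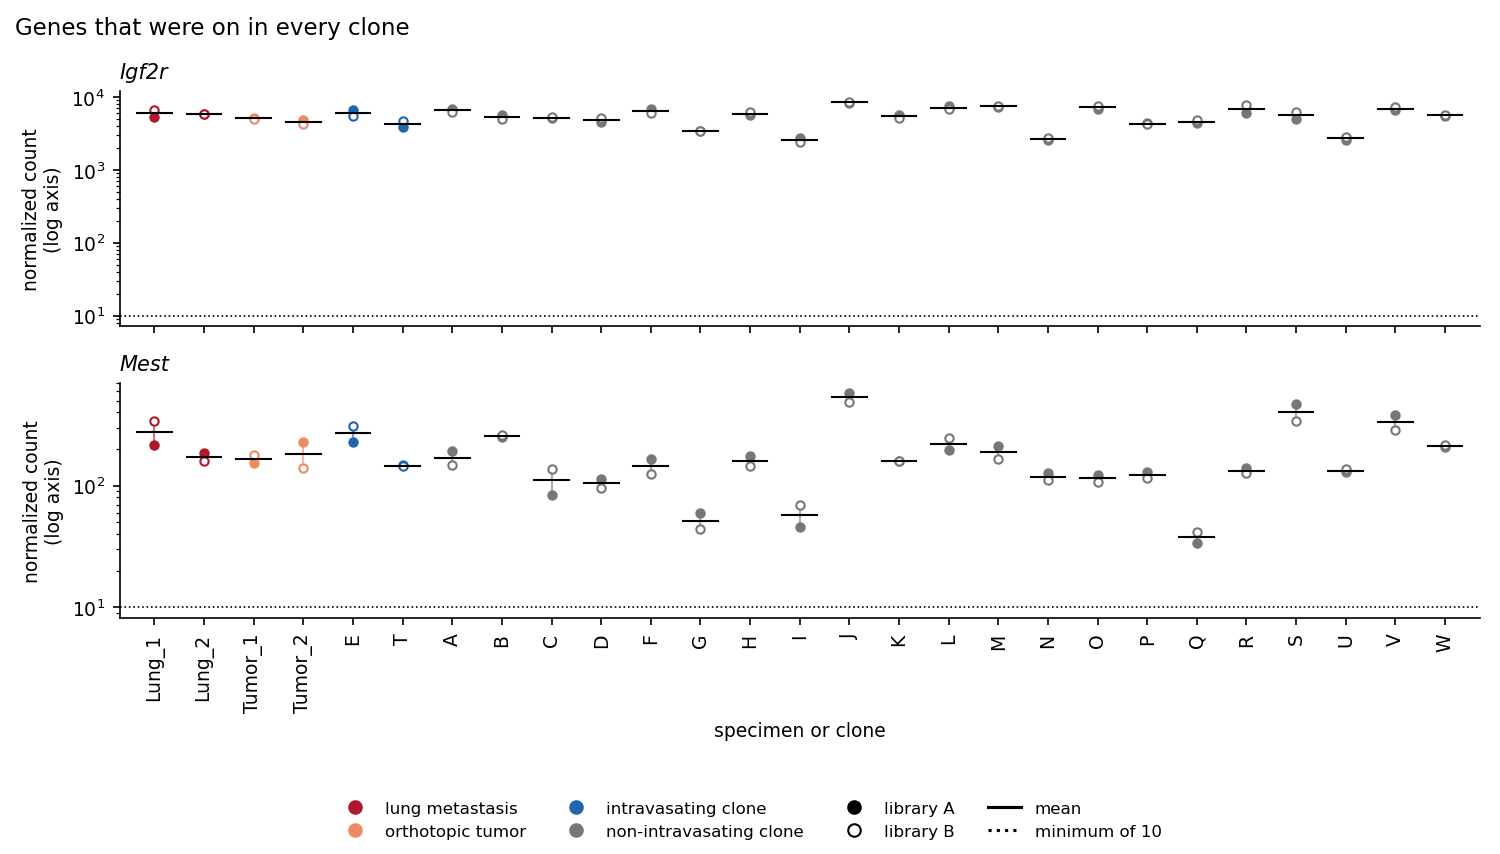
Normalized counts of Igf2r (upper panel) and Mest (lower panel) in each specimen and clone on a log axis, with filled points for library A, open points for library B, bars for their mean and a dotted line at the minimum of 10. Clone means run from 2562 to 8480 for Igf2r and from 37.6 to 532 for Mest, and all libraries lie above the minimum.

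Both genes overlap a gene on the other strand, and since the strand setting of the authors' counting is not given in the sources used here, reads of the overlapping parts cannot be told apart. Airn, the noncoding RNA that silences the paternal Igf2r, starts within Igf2r. It ran from 0 to 227 counts over clone libraries and was on in 19 clones. Across the 23 clones the log2 levels of Igf2r and Airn had a Pearson r of -0.11. Copg2, which encodes a subunit of the COPI coat and meets the end of Mest, ran from 82.9 to 449 counts, and its r with Mest was 0.64. Both coefficients are descriptions over the same libraries.

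The other 6 genes had few reads. Igf2 (chr7:142650766-142666816, minus strand) had 32 reads in all 46 clone libraries together, of 781336783 reads, and 0 in 32 of them. Clone G stood highest, with 7.43 and 5.25 counts, and its libraries did not overlap with those of the next in order, Tumor_1, which had 2.85 and 3.61. In the 4 specimens no library had more than 3.61 counts of Igf2. H19 and Igf2, neighbours that share enhancers, were thus in different states in 13 clones and in all 4 specimens.

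Grb10, whose product is an adaptor that dampens signalling of the insulin and IGF1 receptors (chr11:11930508-12038683, minus strand), had 4 reads over the clone libraries and 0 in 42 of them. It had 3.59 and 4.46 counts in Lung_1, 17.4 and 22.3 in Lung_2, 2.85 and 1.80 in Tumor_1 and 2.91 and 2.34 in Tumor_2. No clone library had more than 1.07 counts, so the 8 specimen libraries lay above all 46 clone libraries. Cdkn1c, which encodes the inhibitor of cyclin-dependent kinases p57 (chr7:143458339-143461050, minus strand), was the least silent of the 6, with 69 reads over the clone libraries and 0 in 17. It had 4.49 and 2.23 counts in Lung_1, 2.48 and 2.47 in Lung_2, 7.59 and 3.61 in Tumor_1 and 5.83 and 15.2 in Tumor_2, against at most 9.40 in a clone library, in clone P.

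Meg3, a maternally expressed long noncoding RNA of the cluster with Dlk1 and Rtl1 (chr12:109541001-109571726, plus strand), had 18 reads over the clone libraries and 0 in 35 of them. It had 40.4 and 2.97 counts in Lung_1, 30.6 and 18.1 in Lung_2, 0 and 4.51 in Tumor_1 and 0 and 4.67 in Tumor_2. In lung metastases the A library was above the B library each time, and in tumors the B library was above the A library. Peg3, which encodes a zinc-finger protein expressed from the paternal allele (chr7:6703892-6730431, minus strand), was the most silent, with 2 reads, both in 1 library of clone Q. It had 4.49 and 3.71 counts in Lung_1, 19.04 and 9.89 in Lung_2, 2.85 and 0 in Tumor_1 and 0 in both libraries of Tumor_2. Peg10, a gene derived from a retrotransposon and needed for the mouse placenta (chr6:4747306-4760517, plus strand), had 10 reads over the clone libraries, and in lung metastases 8.08 and 0.743 counts in Lung_1 and 9.93 and 2.47 in Lung_2. Tumor libraries had at most 3.51 counts of Peg10.

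**Figure D4:**
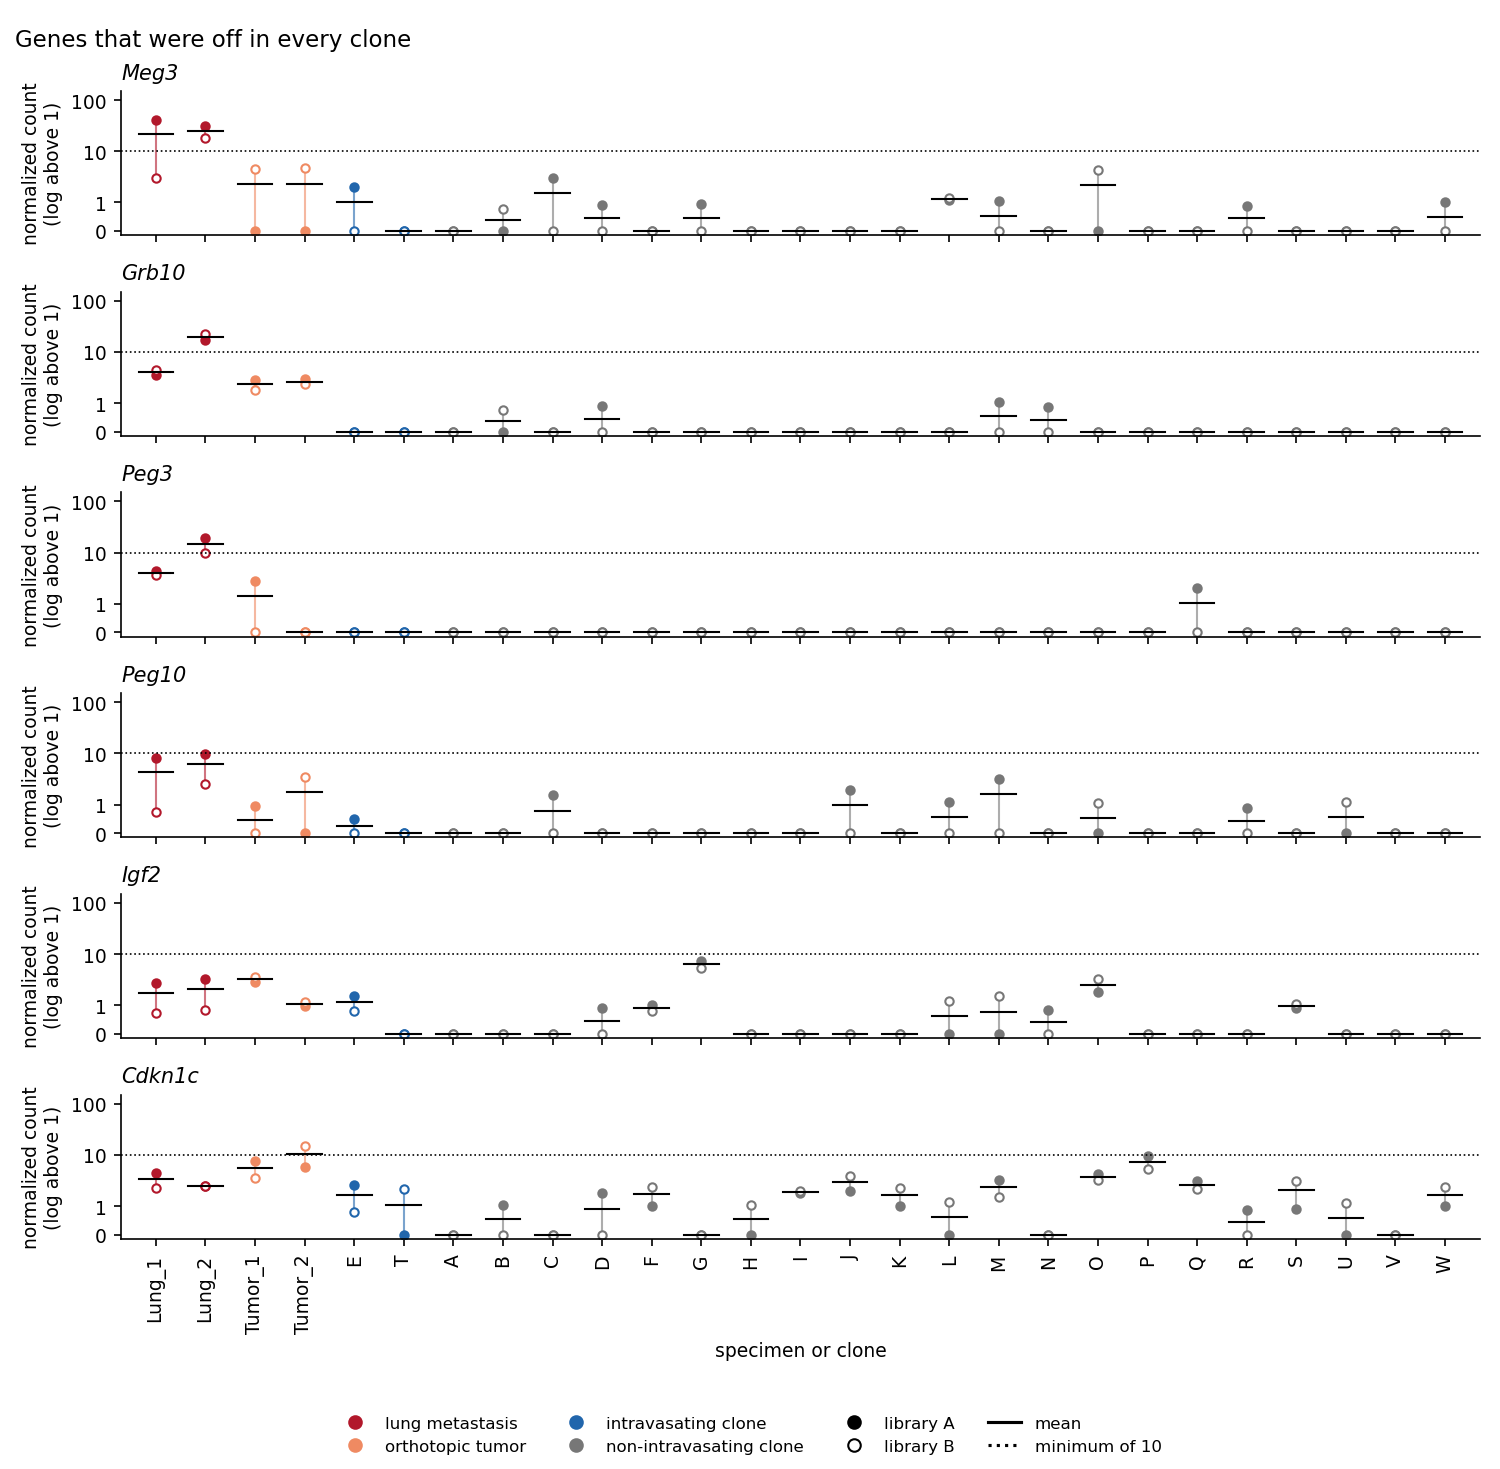
Normalized counts of Meg3, Grb10, Peg3, Peg10, Igf2 and Cdkn1c (panels) in each specimen and clone, on an axis that is linear below 1 and logarithmic above. Filled and open points are libraries A and B, bars are their mean and the dotted line is the minimum of 10, which no clone library of these 6 genes reaches.

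Several partners in the clusters of these genes had few reads in the clones as well, and others did not. Over 46 clone libraries the reads were 1 for Usp29 and 1 for Zim1, which lie beside Peg3, and 8 for Sgce beside Peg10. They were 3 for Rian, 7 for Mirg, 6 for Dlk1 and 4 for Rtl1 beside Meg3, and 7 for Ddc beside Grb10. Some other genes of the Peg10 cluster were not low: Ppp1r9a had 346 to 2016 counts over clone means, Pon2 987 to 3163 and Pon3 149 to 679, and all were on in 23 clones. Calcr and Tfpi2 of the same cluster were on in 0 clones, with clone means of at most 0.976 and 3.87 counts. The cluster of Cdkn1c was mixed too. Kcnq1ot1, the noncoding RNA that silences this cluster on the paternal allele, had 443 to 5669 counts, and Phlda2, which restrains growth of the placenta, had 80.5 to 1192, while Cdkn1c was off. Of 60 other imprinted genes listed, 58 were in the table, of which 23 were on in every clone, 29 in no clone and 6 in some. The 6 were Asb4 (on in 20 clones), Airn (19), Phactr2 (15), Slc22a18 (6), Dcn (2) and Kcnq1 (1), chosen for naming after their states were seen.

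Among the 23 clones, 4 of the 10 genes, H19, Igf2r, Mest and Plagl1, passed the filter of at least 10 counts in at least 2 libraries, and all 4 differed between clones by limma's moderated F-test, with adjusted p of 4.75e-14 or below. Of the 13637 genes tested, 95.1% did, so this count lies near that of all genes. The range of clone means on the deposited log2 scale was 2.57 for H19, 2.70 for Mest, 1.70 for Igf2r and 1.62 for Plagl1, with a median of 2.14 over the 4 and of 1.15 over all genes tested. The SD between clones was 4.22, 3.89, 4.02 and 3.78 times that between libraries of a clone, in the same order. The deposited scale is compressed for low counts, so the ranges of H19, Plagl1 and Mest are smaller than the log2 ratios of their counts. On a scale of log2(count + 1) the order differed, with ranges of 6.72 for H19, 5.54 for Plagl1, 3.79 for Mest and 1.73 for Igf2r.

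Of the 6 pairs among these 4 genes, Igf2r and Mest moved together across the clones. Pearson's r was 0.59 (permutation p = 0.003, adjusted over 6 pairs 0.018) and Spearman's rho was 0.61 (permutation p = 0.00214, adjusted 0.0128). Without clones I and N, which lay farthest from the median of Igf2r, r was 0.55 over 21 clones and its adjusted permutation p was 0.0659, past the threshold of 0.05. The other 5 pairs had r between -0.04 and 0.28 and adjusted permutation p of 0.498 or above. The labels name no batch of clones within which to repeat this.

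**Figure D5:**
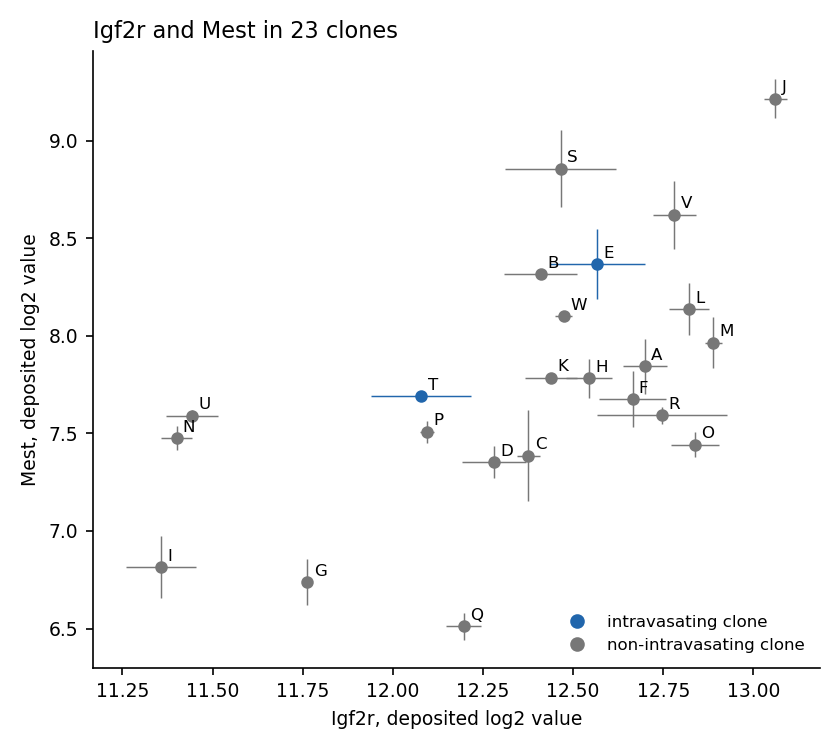
Deposited log2 values of Igf2r (horizontal axis) and Mest (vertical axis) in the 23 clones, as the mean of 2 libraries with lines that end at each library; letters name the clones. Clone J is highest for both genes, and I and N, with Q and G, lie at the low ends.

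By likeness of clone means over the 23 clones, as a description, the tested genes nearest to H19 were Myh2, a myosin of fast muscle fibres (r = 0.80, at most 35.8 counts in a clone), Map4k3, a kinase of the MAP kinase cascade (0.77), and Leprot (0.77). Those nearest to Mest were Fbxo5, an inhibitor of the anaphase-promoting complex (0.72), Zfp781 (0.71) and Socs2, a suppressor of cytokine signalling (0.70). Those nearest to Plagl1 were Kat8, a histone acetyltransferase (0.71), Tctn2, a protein of the ciliary transition zone (0.69), and Sytl2 (0.68). Each is among the highest of the coefficients with all other genes tested.

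Of the 4 genes, 0 passed limma's test between the 2 intravasating clones and the 21 others. The difference, intravasating minus other clones on the deposited log2 scale, was 0.69 ± 0.54 for H19 (SE), 0.28 ± 0.46 for Mest, 0.28 ± 0.38 for Plagl1 and -0.05 ± 0.35 for Igf2r, with adjusted p of 1.00 for each. Of all 13637 genes, 0% passed, 109 had an unadjusted p under 0.05, and between 0 and 4 passed with 1 clone left out. H19 was on in both intravasating clones and in 11 of the 21 others. Clones F, D and R, which are labelled non-intravasating, had more H19 than clone E. For Plagl1, E stood at 26.2 counts and T at 3.34, beside a median of 3.11 in the others.

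Specimens were compared with clones on 1 value each. In tumors against clones, 2 of the 6 genes tested were higher and 0 lower, where 5.71% of 14235 genes were higher and 1.75% lower. Of the 4 that also passed the filter in clones, H19, Igf2r, Mest and Plagl1, H19 alone was called. H19 rose by 2.22 ± 0.54 on the log2 scale (SE, adjusted p = 0.00944 in limma, n = 2 tumors and 23 clones). Grb10 differed by 0.37 ± 0.08 (adjusted p = 0.0031 in limma), at levels of 2.33 and 2.63 counts in the tumors. It passed the filter only through Lung_2, and Meg3 only through the lung metastases, so the call of Grb10 is no support for a change. The differences of the other 4 were 0.59 ± 0.36 for Plagl1, 0.20 ± 0.08 for Meg3, 0.09 ± 0.44 for Mest and -0.11 ± 0.33 for Igf2r, with adjusted p of 0.137 or above. Neither call held with 1 tumor left out, when H19 stood at 2.33 and 2.12 (adjusted p = 0.107 and 0.36), and that of H19 was also lost on a scale of log2(count + 1), at adjusted p = 0.0789.

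In lung metastases against the same clones, 4 of 6 were higher and 0 lower, where 12.4% of genes were higher and 6.34% lower. H19 rose by 2.33 ± 0.54 (adjusted p = 0.00273 in limma), Meg3 by 1.02 ± 0.08 (9.93e-11), Plagl1 by 1.02 ± 0.36 (0.0467) and Grb10 by 0.78 ± 0.08 (2.2e-08). Mest differed by 0.35 ± 0.44 and Igf2r by 0.19 ± 0.33, with adjusted p of 0.619 and 0.727. Meg3 and Grb10 passed the filter only through the lung metastases, where they were high, so their calls were bound to differ and are no support for a change. Without Lung_2, 0 of the 10 genes were called: H19 then stood at 1.85 (adjusted p = 0.192) and Plagl1 at 0.90 (0.393), and Meg3 and Grb10 no longer passed the filter. Plagl1 was also lost without Lung_1 (adjusted p = 0.222) and on the scale of log2(count + 1) (0.104).

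Lung metastases against tumors, 2 against 2 specimens, gave 2 of 6 genes higher and 0 lower, where 16.6% of 13702 genes were higher and 14.8% lower. Meg3 rose by 0.82 ± 0.13 (adjusted p = 0.00255 in limma), again after passing the filter only through the lung metastases, and Plagl1 by 0.43 ± 0.14 (0.0406). H19 differed by 0.11 ± 0.26, and its direction depended on the specimen: 0.59 without Lung_1 and -0.37 without Lung_2. The call of Plagl1 was lost without Tumor_1, Tumor_2 or Lung_2, at adjusted p of 0.198, 0.12 and 0.155. With the B libraries only, 0 of the genes were called and the difference of Plagl1 was 0.37 (adjusted p = 0.36).

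Among the specimens, markers of fibroblasts, macrophages and leukocytes summed highest in Lung_2, and endothelial markers in library A of Lung_1. Lung epithelial and erythroid markers summed highest in library B of Tumor_2. In bulk samples, fewer cells of a type and less RNA per cell cannot be told apart. The 7 fibroblast markers, Col1a1, Col1a2, Col3a1, Dcn, Lum, Pdgfra and Pdgfrb, summed to 1507 and 1818 counts in Lung_1 and 4754 and 4203 in Lung_2, against 654 to 845 in tumors and 111 to 1841 in clones. The 5 macrophage markers measured summed to 1071 to 2594 counts in lung metastases, 688 to 1140 in tumors and 153 to 2614 in clones. The 3 leukocyte markers, Ptprc, Cd52 and Coro1a, summed to 49.4 to 157 in lung metastases, 43.6 to 56.8 in tumors and 1.83 to 28.1 in clones. The 4 endothelial markers summed to 18.6 to 72.8, 11.6 to 43.2 and 1.01 to 25.4 in the same order of groups. The 6 lung epithelial markers, such as the surfactant genes, summed to 23.8 to 40.4 in lung metastases, 21.6 to 59.6 in tumors and 13.2 to 69.3 in clones. None of the fibroblast, macrophage, leukocyte and endothelial lists had a marker at 0 in a whole group. Of the 3 erythroid markers, Hba-a1 and Hbb-b1 were at 0 in all groups, so the erythroid sum was that of Alas2 alone. That sum ran from 45.3 to 111 counts in lung metastases, 52.4 to 173 in tumors and 16.2 to 119 in clones. The part of such cells in the levels of Meg3, Grb10, Peg3, H19 and Plagl1 in the specimens was not tested.

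Of the 58 other imprinted genes, 30 were tested among the clones and 28 differed between them, near the share of all genes (95.1%). Asb4, a component of a ubiquitin ligase, ran from 5.55 counts in clone G to 322 in clone A, and Phlda2 from 82.3 in S to 1068 in J. Airn ran from 1.05 in S to 199 in W, and Kcnq1ot1 from 615 in N to 3833 in L. The test of intravasating against other clones called 0 of 30. In tumors, 3 of 31 were higher than in clones and 0 lower, where 5.71% and 1.75% of all genes were. Kcnq1ot1 had 6394 and 10746 counts in the tumors against a median of 1502 in clones (2.13 ± 0.39, adjusted p = 0.000659 in limma), Dcn, a proteoglycan of fibroblasts, had 73.3 and 52.9 against a median of 0.535, and Zrsr1, a splicing factor gene, had 104 and 186 against a median of 50.2.

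In lung metastases 7 of 31 were higher than in clones and 1 was lower, where 12.4% and 6.34% of all genes were. Mkrn3, 1 of the 7, passed the filter only through specimens, which left 6 of 30. The highest differences were those of Dcn (65.8 and 204 counts, against a median of 0.535 in clones), Kcnq1ot1 (6766 and 5224, against 1502), Airn (204 and 157, against 40.8) and Sfmbt2 (1716 and 1980, against 791). Kcnq1ot1 and Airn varied between libraries of a specimen, with 4078 counts in library A and 17413 in library B of Tumor_2 for Kcnq1ot1, and 77.7 and 402 for Airn. Against tumors, 4 of 30 were higher in lung metastases and 2 lower, where 16.6% and 14.8% of all genes were. Phlda2 fell, with 235 and 117 counts against 407 and 356 in tumors, and so did Osbpl5, with 273 and 275 against 410 and 395. Trappc9 rose, with 603 and 529 against 279 and 285, and Peg13, a noncoding RNA inside it, with 366 and 320 against 203 and 174. Over the 30 genes that also passed in clones, the median difference was 0.17 in lung metastases against clones, with 0.06 over all genes tested, and 0.14 and 0.05 in tumors against clones.

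Of genes whose proteins write, read or erase imprints, 14 of 14 tested differed between clones, where 95.1% of all genes did. Zfp57 had the widest range, with 0 counts in clone K and 447 in clone W, and was on in 18 clones. Tet1, which oxidises methylated cytosine, ran from 11.1 in U to 599 in W. The range of their clone means was 3.96 and 3.51 on the log2 scale, against a median of 0.96 over the list and 1.15 over all genes tested. In tumors 0 of 14 were higher than in clones and 2 lower, where 5.71% and 1.75% of all genes were. Ctcf, which insulates Igf2 from the enhancers at the H19 locus, had 2329 and 2129 counts against a median of 3607 (-0.64 ± 0.16, adjusted p = 0.0123 in limma). Uhrf1, a partner of the maintenance methyltransferase, had 2012 and 1869 against 3085 (-0.63 ± 0.17, adjusted p = 0.0226 in limma). In lung metastases 2 of 14 were higher than in clones and 1 lower, where 12.4% and 6.34% of all genes were. Tet2 (1.12) and Dnmt3l (0.40, at 3.73 and 4.13 counts) were higher and Uhrf1 (-0.60) was lower. The median difference of the list was -0.06, with 0.06 over all genes tested. Lung metastases had less Zfp57 than tumors, 117 and 114 against 238 and 339 counts (-0.95 ± 0.14, adjusted p = 0.00191 in limma), and more Tet2 (0.67) and Dnmt1 (0.43). These were 2 higher and 1 lower of 13 tested, where 16.6% of all genes were higher and 14.8% lower.

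In the IGF pathway, of 17 genes listed, 11 were tested among the clones and 10 differed, near the share of all genes (95.1%). Igfbp7, a secreted binding protein, ran from 116 counts in clone V to 3034 in A, and Igf2bp1, a protein that binds Igf2 and H19 RNA among others, from 41.5 in B to 865 in Q. Against clones 15 were tested, but Igf1, Igfbp3, Igfbp5 and Pappa passed the filter only through specimens where they were high, so calls of these 4 are no support for a change. Of the other 11, 0 were lower in lung metastases or in tumors, where 6.34% and 1.75% of all genes were. In lung metastases 1 was higher and in tumors 1, where 12.4% and 5.71% of all genes were. It was Igf2bp3 in both, which encodes an RNA-binding protein, with a difference of 0.46 ± 0.16 in lung metastases (adjusted p = 0.046 in limma) and 0.51 ± 0.16 in tumors (0.0498). The tumors and lung metastases were set against the same clones. Igfbp5, which binds IGFs, had 1.56 and 254 counts in Lung_1 and Lung_2 and 10.2 and 35.5 in the tumors, and Pappa, a protease that frees IGFs, had 19.4 and 42.6 counts in lung metastases and 1.90 and 2.14 in tumors. No clone had a mean over 0.976 counts of either. The median difference of the 11 was 0.30 in lung metastases and 0.28 in tumors against clones, with 0.06 and 0.05 over all genes tested. Lung metastases had less Igf2bp1 than tumors, 158 and 110 against 619 and 613 counts (-1.82 ± 0.14, adjusted p = 9.8e-05 in limma). Of 15 tested, 3 were lower and 4 higher, where 14.8% of all genes were lower and 16.6% higher. Igf1 and Pappa, among the higher, could not have passed the filter without the lung metastases, so their calls are no support for a change.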

How the data were processed

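RNA-seq libraries from 54 samples of 4T1 cells were made, per the labels' protocols, from 100 ng of total RNA amplified with a NuGEN kit and read over 76 bases. Bowtie2, HTSeq and DESeq were used with build mm10, per the submitters' processing notes, with versions, settings and strand option not given in the sources used here. The authors deposited log2 values for 23481 genes, which follow a variance-stabilising curve with its floor of 5.03 at 0 reads. Inverting that curve gave normalized counts, and 100% of the values were whole reads within 0.01. There were 0 columns without a sample, and in 27 entries the symbol had become a date. The correlation of the 2 libraries of a clone or specimen lay between 0.981 and 0.998.

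Tests used limma 3.58.1 in R 4.3.3 with a variance trend on the deposited log2 values, two-sided, Benjamini-Hochberg adjusted over all genes of a comparison, at a threshold of 0.05. Genes with at least 10 normalized counts in at least 2 libraries of the comparison entered. The among-clones test used 46 libraries, and the others used 1 value per clone or specimen. Tumors and lung metastases were set against the same clones in 1 fit. Correlations used 100000 permutations. The fits were tested on simulated data.

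Alternatives were another filter, a scale of log2(count + 1), the replicate letter as a block, and leaving out libraries, clones or specimens. Named were the 10 genes, the 3 nearest to each that was on and off in at least 3 clones each or ranged over 2 log2 units, cluster neighbours, and up to 4 per gene list by the size of the difference. The genes and lists were chosen with earlier results of these data known. Gene positions are from GENCODE M21 and sequences from RefSeq.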

Additional observations from a re-analysis of the deposited data

How the results depend on the processing

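All 4 genes stayed called among the clones, and 0 were called between intravasating and other clones, under each alternative run. With the replicate letter as a block, 13066 genes were called among clones, against 12971 without it, and 4 and 0 of the imprinted genes. The differences of library A minus library B correlated between -0.502 and 0.637 over 253 pairs of clones, with a median of 0.0802. Of these pairs, 113 were over 0.1, and whether some clones shared an effect of the letter was not tested. In tumors against clones the 2 calls became 1 on the scale of log2(count + 1), 1 with the A libraries and 1 with the B libraries, and 0 with either tumor left out. In lung metastases against clones the 4 calls became 1 with the B libraries and 0 to 3 with 1 specimen left out. Between lung metastases and tumors the 2 calls became 1 without a filter, 1 with the A libraries, 0 with the B libraries and 1 to 4 with 1 specimen left out. In these comparisons the counts of all genes called ran from 126 to 2249 (main value 1062), from 526 to 8068 (2662) and from 325 to 4650 (4305). H19 was on in 5 clones at a minimum of 50 counts, Plagl1 in 0 at 50 and in 15 at 1% of its highest clone, and Igf2 and Cdkn1c in 1 clone each at a minimum of 5. Without the 2 clones farthest from the median, 0 pairs of genes passed the test, although r of Igf2r and Mest was 0.55 over 21 clones, against 0.59 over 23. Directions turned for Meg3 in tumors against clones with the A libraries (-0.10). They turned for the correlation of Mest with Plagl1 on the scale of log2(count + 1) (0.0096) and without 2 clones (0.35), and for that of H19 with Mest without 2 clones (0.075). With 1 clone left out, the difference between intravasating and other clones ran from -0.059 to 0.62 for Mest, from -0.12 to 0.68 for Plagl1 and from -0.29 to 0.20 for Igf2r. With 1 specimen left out, that between lung metastases and tumors ran from -0.37 to 0.59 for H19 and from -0.0021 to 0.52 for Mest. The causes were not tested. Of single values, 396 kept direction and side of the threshold, 17 lost and 3 gained the call. A group with 1 specimen left is assumed to vary like the others. Low read numbers limit the 6 genes that were off, and 2 specimens per kind limit each comparison with them.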
